A study of Mus musculus with 9 samples.

Results

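The genes described here are 47 of the MYC network, ribosome biogenesis and related MYC targets. They were chosen by their symbols, with earlier results of these data known. All 47 were found among the 35673 symbols of the count table, and all 47 were among the 21341 genes that passed the filter on low counts and were tested. They comprise 5 genes of the MYC and MAX network, 9 of snoRNPs and the nucleolar core, 8 of the small subunit processome, 10 of large subunit assembly, 6 of RNA polymerase I transcription, 6 for polyamines, nucleotides and mitochondrial chaperones, and 3 translation factors.

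MYC is a transcription factor that binds DNA as a dimer with MAX, and the dimer is known for raising transcription of genes for ribosome production, polyamine and nucleotide synthesis, and translation. MXD1 and MXI1 bind MAX too and repress genes at the same E-box motif, so the supply of MYC and of these partners is commonly read together. Ribosome production begins in the nucleolus, where RNA polymerase I copies ribosomal DNA. Guide RNAs in small nucleolar ribonucleoproteins (snoRNPs) direct chemical changes of the transcript, and assembly factors cut and fold it into the small and large subunits. Basophils are granulocytes that respond to IL-3 and to the alarmin IL-33.

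Bulk RNA-seq was made from basophils grown out of C57BL/6J wild-type mouse bone marrow over 7 days in 0.3 ng/mL recombinant mouse IL-3 and selected on beads for CD49b. Cells were then held for 4 hours, with 10000 cells a library and 3 libraries a group. The difamilast group received IL-3 and IL-33, 10 ng/mL each, with 3 µM difamilast, an inhibitor of the cAMP-degrading phosphodiesterase PDE4. The stimulated group received the same cytokines with the vehicle DMSO, and the resting group PBS with DMSO. Resting cells given difamilast were not analysed here. No label ties the replicates to separate cultures or animals. The p-values therefore cover the spread among these libraries alone, and that spread may be technical.

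Library totals ranged from 6261446 counts in resting replicate 3 to 38098584 in stimulated replicate 2. Levels below are CPM, the counts of a gene relative to the size of its library, after TMM scaling, which corrects for transcripts that take a large share of a library. The scaling matters for the stimulation comparison. With library totals alone the median log2 fold change of all tested genes, stimulated against resting, was -0.47, against 0.06 with TMM. Relative to that median, the median of the 47 members stood 0.18 higher with library totals and 0.17 higher with TMM. Basophil markers, 12 of 12 in the table, summed to 14990 to 15680 CPM in difamilast, 13260 to 14110 CPM in stimulated and 7330 to 8446 CPM in resting libraries. With stimulation 8 of them were called higher and 1, Itga2, lower. With difamilast against stimulated 1 was called higher, Hdc, which averaged 4518 CPM against 2277 CPM, and 1 lower, Ms4a2. Markers of monocytes and macrophages, also 12 of 12, summed to 4601 to 5005 CPM in difamilast, 4820 to 5126 CPM in stimulated and 6106 to 7710 CPM in resting libraries. Of these, 7 were called lower and 1 higher in stimulated against resting. No marker of these lists had a count of 0 in any library, and their part in the results was not tested. In bulk RNA, fewer cells of a type and less RNA per cell cannot be told apart.

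The E-box CACGTG, the motif that dimers of MYC and MAX bind best, stood in the RefSeq promoter window of 13 members. A window runs from 250 bases before to 50 bases after an annotated start, and 40 of the 47 members had one. The windows of 3 members that rose with stimulation and hold the motif are printed first, with that of Max, which fell and was chosen after its values were seen. Each sequence is RefSeq's, build GRCm38.p6, read 5′ to 3′ along the gene's strand, with CACGTG in capitals. They are Eif5a at chr11:69921337-69921636, minus strand, Tsr1 at chr11:74897830-74898129, plus strand, Eif4a1 at chr11:69672374-69672673, minus strand, and Max at chr12:76962199-76962498, minus strand.
Eif5a: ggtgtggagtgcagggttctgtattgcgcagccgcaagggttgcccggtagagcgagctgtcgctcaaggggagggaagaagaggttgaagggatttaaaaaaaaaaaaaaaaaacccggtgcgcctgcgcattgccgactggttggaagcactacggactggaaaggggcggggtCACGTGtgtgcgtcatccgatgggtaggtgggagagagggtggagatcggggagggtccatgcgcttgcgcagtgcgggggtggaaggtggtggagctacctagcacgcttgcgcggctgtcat
Tsr1: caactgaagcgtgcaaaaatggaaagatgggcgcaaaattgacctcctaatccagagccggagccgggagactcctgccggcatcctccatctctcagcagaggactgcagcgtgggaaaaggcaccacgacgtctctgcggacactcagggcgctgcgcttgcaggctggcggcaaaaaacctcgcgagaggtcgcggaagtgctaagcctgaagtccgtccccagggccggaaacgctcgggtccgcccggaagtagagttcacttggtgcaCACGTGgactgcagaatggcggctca
Eif4a1: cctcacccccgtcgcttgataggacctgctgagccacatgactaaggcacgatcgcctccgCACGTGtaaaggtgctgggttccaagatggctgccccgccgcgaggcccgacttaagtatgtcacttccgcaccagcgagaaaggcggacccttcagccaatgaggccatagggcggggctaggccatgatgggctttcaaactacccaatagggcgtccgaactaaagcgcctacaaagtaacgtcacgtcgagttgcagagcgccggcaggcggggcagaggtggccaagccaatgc
Max: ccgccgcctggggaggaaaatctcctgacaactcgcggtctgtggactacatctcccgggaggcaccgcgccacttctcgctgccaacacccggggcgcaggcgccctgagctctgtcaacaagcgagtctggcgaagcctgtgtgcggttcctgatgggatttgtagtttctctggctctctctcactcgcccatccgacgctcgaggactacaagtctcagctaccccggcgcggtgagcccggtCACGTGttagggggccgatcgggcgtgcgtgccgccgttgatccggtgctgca
The first base of the motif lay 74 bases before the start in Eif5a, 189 bases before it in Eif4a1 and 3 bases before it in Max. In Tsr1 it lay 24 bases after the start. Eif5a has 6 annotated windows, of which 3 hold the motif. CACGTG is its own reverse complement, so a search of either strand finds the same sites. It was found in 32.5% of the 40 members and in 8.09% of 27025 genes with a window. The other members with the motif were Utp20, Wdr43, Nop2, Pes1, Mybbp1a, Rrn3, Nme1, Hspd1 and Eif4e. Among members with a window, 3 of 9 called higher and 1 of 4 called lower with stimulation held it. The cAMP response element TGACGTCA, also its own reverse complement, was found in 1 of the 40 members, Ppan, or 2.5%, and in 2.03% of all genes with a window. Neither motif was found in the windows of Mxd1, Mxi1 or Odc1, the members that rose with difamilast. A match is a run of letters, not a measured binding site.

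In cells stimulated with IL-3 and IL-33, 10 members rose and 4 fell against resting cells, by the quasi-likelihood test of edgeR with Benjamini-Hochberg adjustment over all tested genes. Myc, Mycn, Mxd1, Nop58, Nolc1, Heatr1, Tsr1, Ddx21, Eif4a1 and Eif5a were higher, and Max, Mxi1, Ubtf and Cad were lower. The members called higher were 21.3% of the set, where 15.3% of all tested genes were called higher, and those called lower were 8.51%, where 16.4% of all genes were. The split was 2 higher, Myc and Eif5a, and 16 lower with library totals alone. Over all 21341 tested genes, 1326 were then called higher and 8749 lower. In 18 members all stimulated libraries lay above all resting ones, 38.3% where 23.2% of all tested genes did, and in 4 they lay below, 8.51% where 20.6% did. With library totals alone these counts were 3 and 20, or 6.38% and 42.6%, against 8.43% and 44.7% of all tested genes. In cells given difamilast with the cytokines, Mxd1, Mxi1 and Odc1 rose and Nhp2 and Srm fell against stimulated cells. These 5 stand against a background of 3.44% of all tested genes, 2.21% higher and 1.24% lower. Of the 47 members, 38 had a log2 fold change below 0 in that comparison, 80.9% against 50.4% of all genes and 2 of the 38 were called. Both comparisons share the stimulated libraries, so their values are set side by side and not correlated.

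**Figure D1:**
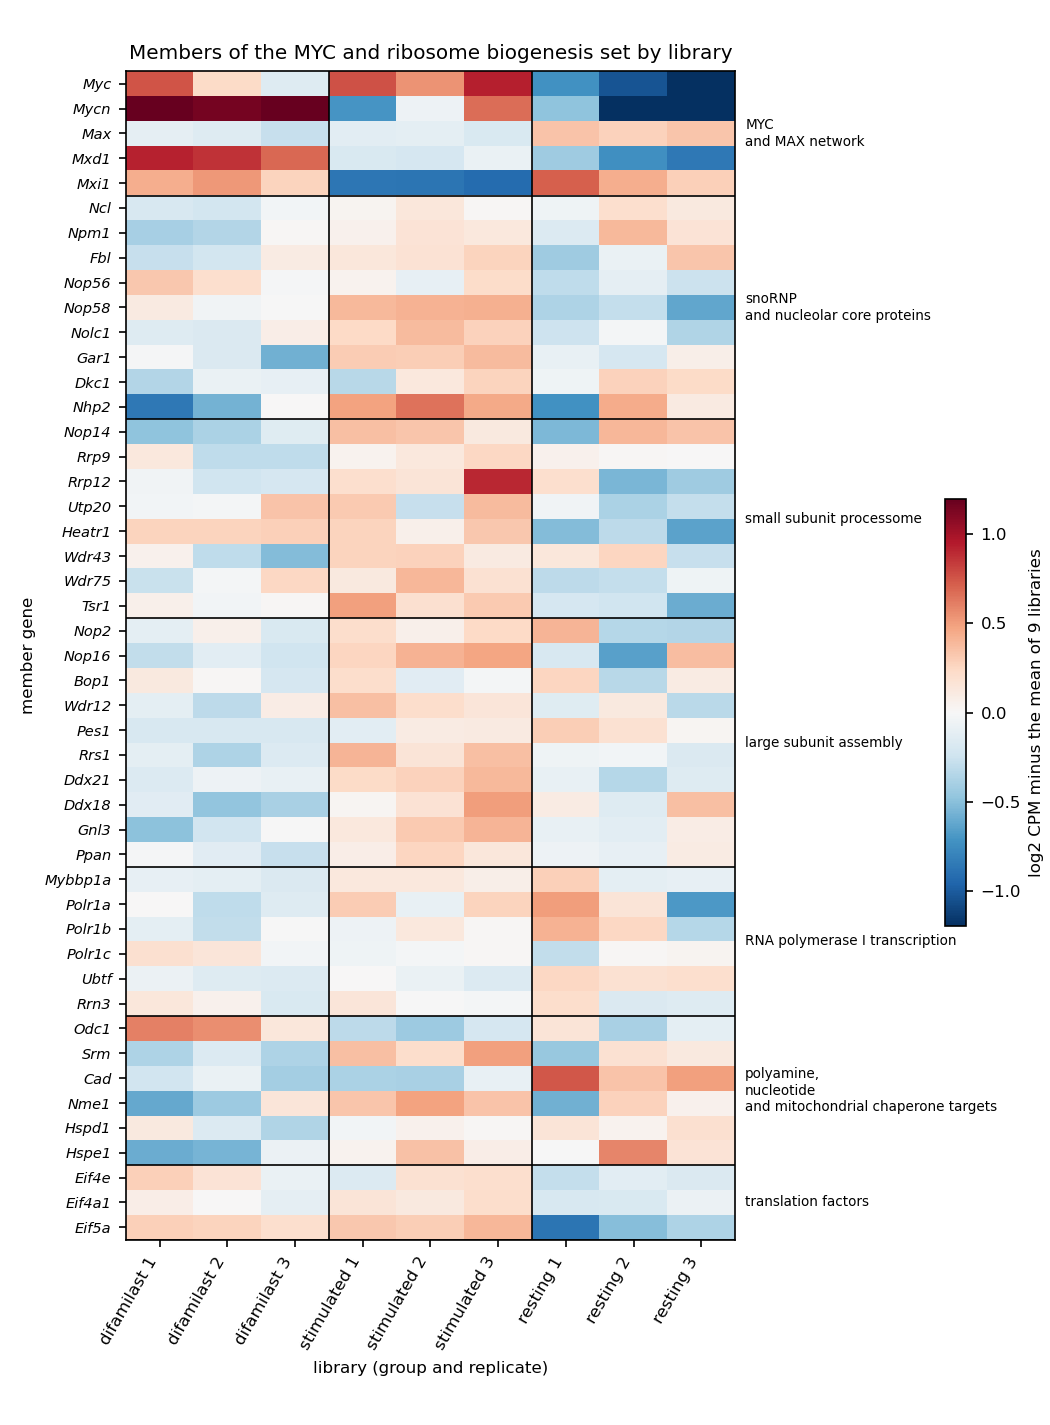
Heat map of the 47 members (rows, grouped by role) in 9 libraries (columns). Colour is log2 CPM minus the gene's mean over the 9 libraries, red above and blue below it. In the rows of Mycn and Mxd1 the 3 difamilast libraries are reddest, and in that of Mxi1 the 3 stimulated libraries are bluest. In Odc1 difamilast replicates 1 and 2 are reddest, and difamilast replicate 3 is close to resting replicate 1. In Nhp2, Nop14, Npm1, Nme1 and Hspe1, difamilast replicate 3 is closer to the stimulated libraries than difamilast replicates 1 and 2 are.

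Among the MYC proteins, Myc was scarce in every library. On chromosome 15 from 61985391 to 61990374, plus strand, it stood at 9.56, 6.65 and 5.07 CPM in difamilast, 9.61, 8.22 and 10.8 CPM in stimulated, and 3.43, 2.75 and 2.28 CPM in resting libraries. All stimulated and all difamilast libraries were above all resting ones, and difamilast replicate 1 lay within the range of the stimulated libraries. Myc was 3.32-fold higher in stimulated than in resting cells (log2 fold change 1.73 ± 0.26 (SE), adjusted p = 9.13e-05). Against stimulated cells, difamilast gave a log2 fold change of -0.42 ± 0.22 (adjusted p = 0.421), which did not pass. Resting replicate 3 held 18 reads of Myc, so its level there is the least precise.

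Mycn, the neural paralog of Myc, stood at 6.31, 5.85 and 6.26 CPM in difamilast libraries. Stimulated libraries held 1.62, 2.52 and 4.18 CPM, and resting libraries 1.89, 0.936 and 0.887 CPM. All difamilast libraries lay above all others, while stimulated and resting libraries overlapped. Mycn was 4.85-fold higher in difamilast than in resting cells (log2 fold change 2.28 ± 0.34, adjusted p = 0.000113). It was 2.30-fold higher in stimulated than in resting cells (log2 fold change 1.20 ± 0.36, adjusted p = 0.018). That call was lost under 5 of 18 alternatives. Among them were those without resting replicate 2 (adjusted p = 0.0993), resting replicate 3 (0.0619) or stimulated replicate 3 (0.122), and library totals alone (0.138). Difamilast against stimulated gave a log2 fold change of 1.08 ± 0.29 (adjusted p = 0.0585), which missed the threshold. It passed under 9 of 18 alternatives, among them those without resting replicate 1 (0.0114), resting replicate 2 (0.0475) or stimulated replicate 3 (0.0202). Resting libraries enter difamilast against stimulated, here and for the genes below, only through the filter, the scaling and the spread shared over all groups. Over the 18 alternatives the adjusted p ran from 0.00070 without the filter on low counts to 0.27 without stimulated replicate 2. Counts of Mycn ran from 7 reads in resting replicate 3 to 175 in difamilast replicate 1.

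Max, the shared partner, was the member of the network that difamilast moved least. It held 111, 107 and 98.7 CPM in difamilast, 109, 110 and 105 CPM in stimulated, and 151, 145 and 150 CPM in resting libraries. Both groups with cytokines lay below the resting group without overlap. Max fell 1.38-fold with stimulation (log2 fold change -0.46 ± 0.09, adjusted p = 0.0015). Difamilast against stimulated gave -0.03 ± 0.09 (adjusted p = 0.922).

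Mxd1, on chromosome 6 from 86647042 to 86669161, minus strand, encodes a MAX partner that represses through the SIN3 corepressor. It held 1188, 1139 and 1009 CPM in difamilast, 549, 543 and 590 CPM in stimulated, and 465, 375 and 345 CPM in resting libraries. The 3 groups did not overlap, with difamilast highest and resting lowest. Difamilast raised Mxd1 1.98-fold against stimulated cells (log2 fold change 0.99 ± 0.12, adjusted p = 0.000124). Stimulation raised it 1.42-fold against resting cells with TMM scaling (log2 fold change 0.51 ± 0.12, adjusted p = 0.00399), and with library totals alone the log2 fold change was -0.03. Per kilobase of transcript, Mxd1 averaged 238 CPM in difamilast, 120 CPM in stimulated and 84.6 CPM in resting libraries. Myc averaged 3.04, 4.08 and 1.21 CPM per kilobase in the same order of groups.

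Mxi1, another repressing partner of MAX, lies on chromosome 19 from 53310518 to 53375810, plus strand. It held 80.8, 85.5 and 72.0 CPM in difamilast, 32.7, 32.6 and 31.5 CPM in stimulated, and 98.5, 80.9 and 72.9 CPM in resting libraries. The stimulated libraries were lowest and close together, and the difamilast and resting libraries overlapped. Mxi1 fell 2.61-fold with stimulation (log2 fold change -1.38 ± 0.12, adjusted p = 5.55e-07). It was 2.46-fold higher in difamilast than in stimulated cells (log2 fold change 1.30 ± 0.12, adjusted p = 1.40e-05). Difamilast against resting gave -0.08 ± 0.12 (adjusted p = 0.637), and -0.60 (0.00218) with library totals alone. Under that scaling Mxi1 kept the other calls and directions.

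A ratio of one gene to another within a library does not depend on scaling between libraries. The ratio of Mxd1 to Myc per kilobase, chosen after the values were seen, was 62.3, 85.8 and 99.6 in difamilast libraries. It was 28.6, 33.1 and 27.4 in stimulated libraries and 67.9, 68.3 and 75.8 in resting libraries. The mean was 82.6 ± 18.9 in difamilast, 29.7 ± 3.02 in stimulated and 70.7 ± 4.46 in resting libraries (SD, n = 3 each). Stimulated libraries were below both other groups without overlap, which gives p = 0.1 for each pair in an exact permutation test (two-sided). No smaller p is possible with 3 libraries on each side. Over the 4 ratio tests made, the Benjamini-Hochberg value was also 0.1.

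**Figure D2:**
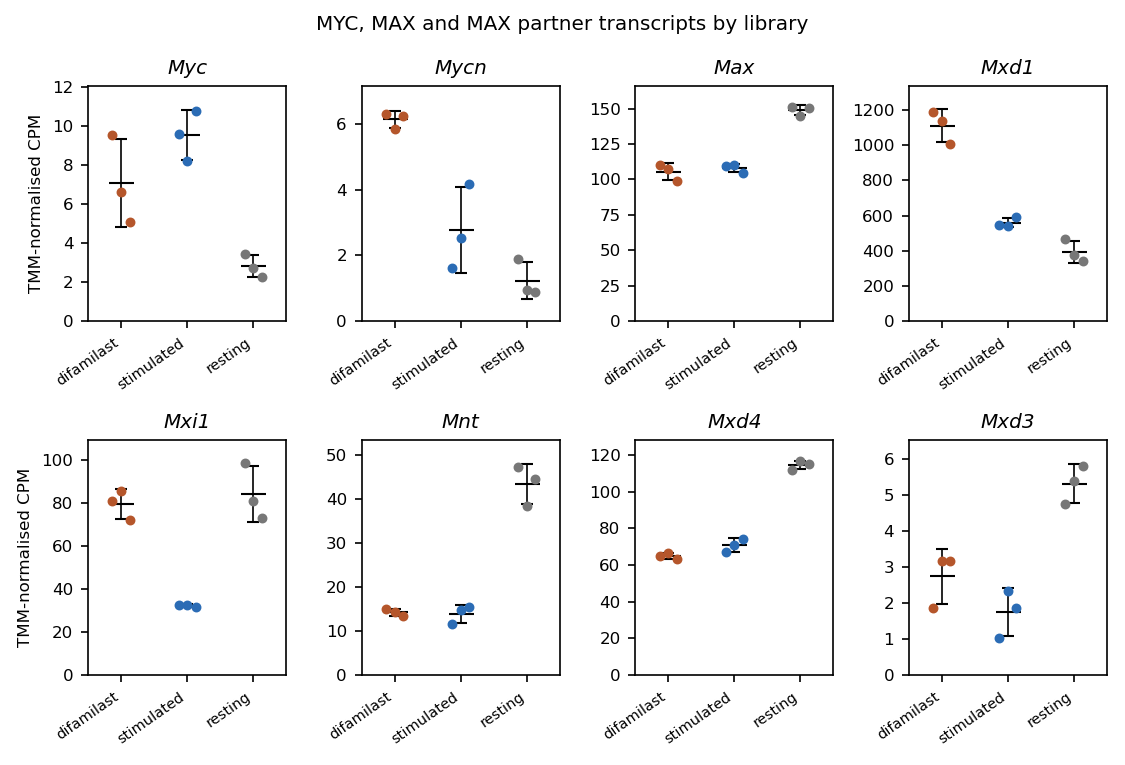
TMM-normalised CPM of Myc, Mycn, Max, Mxd1 and Mxi1, and of the further MAX partners Mnt, Mxd4 and Mxd3, in 3 libraries of each group (points), with the mean and SD (bars). Mxd1 lies at 1009 to 1188 CPM in difamilast, 543 to 590 CPM in stimulated and 345 to 465 CPM in resting libraries, and Mxi1 is lowest in stimulated libraries at 31.5 to 32.7 CPM.

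Of the 9 snoRNP and nucleolar core genes, 2 rose with stimulation, and 8 had a log2 fold change below 0 with difamilast, of which 1 was called. Nop58 is a core protein of box C/D snoRNPs, which guide ribose methylation. It held 31.6, 28.5 and 29.2 CPM in difamilast, 38.3, 39.2 and 39.3 CPM in stimulated, and 22.7, 24.0 and 19.0 CPM in resting libraries. The 3 groups were fully apart, with stimulated highest. Nop58 rose 1.77-fold with stimulation (log2 fold change 0.82 ± 0.12, adjusted p = 0.000112). With difamilast it had a log2 fold change of -0.39 ± 0.12 (adjusted p = 0.111), called without resting replicate 1 (0.0272). Nolc1, a snoRNP chaperone, held 20.3, 19.99 and 23.9 CPM in difamilast, 26.7, 29.3 and 27.3 CPM in stimulated, and 19.0, 22.2 and 17.6 CPM in resting libraries. All stimulated libraries lay above all others. It rose 1.41-fold with stimulation (log2 fold change 0.50 ± 0.14, adjusted p = 0.0118), a call lost without resting replicate 3 (0.0606) or stimulated replicate 2 (0.0561), and its log2 fold change was -0.03 with library totals alone. Under that scaling Nop58 stayed positive at 0.30 (adjusted p = 0.0889).

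Nhp2 and Gar1 are subunits of box H/ACA snoRNPs, which guide pseudouridylation with Dkc1 as the enzyme. Nhp2 held 11, 13.5 and 20.01 CPM in difamilast, 27.9, 31.4 and 27.3 CPM in stimulated, and 12, 27.1 and 21.5 CPM in resting libraries. All difamilast libraries lay below all stimulated ones, and resting replicate 1 was as low as the difamilast libraries. Nhp2 was 1.96-fold lower in difamilast than in stimulated cells (log2 fold change -0.97 ± 0.25, adjusted p = 0.046). The call was lost without resting replicate 3, any stimulated replicate, or difamilast replicate 1 or 2, with adjusted p from 0.0588 to 0.247. In all it was lost under 7 of the 18 alternatives. Stimulated against resting gave 0.51 ± 0.25 (adjusted p = 0.138), called without resting replicate 2 (0.0389). Gar1 held 12.3, 11 and 8.30 CPM in difamilast, 15.3, 15.3 and 16.2 CPM in stimulated, and 11.7, 10.8 and 13 CPM in resting libraries. Its stimulated libraries lay above all others, and neither the log2 fold change of 0.41 ± 0.17 with stimulation (adjusted p = 0.0797) nor that of -0.56 ± 0.16 with difamilast (adjusted p = 0.0829) passed. The first passed without difamilast replicate 3 (0.0431) and the second without resting replicate 1 (0.0308). Dkc1 gave -0.09 with stimulation and -0.24 with difamilast, neither called.

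The other nucleolar core genes were not called in either comparison. Ncl, encoding nucleolin, ranged from 183 to 209 CPM in difamilast, 215 to 235 CPM in stimulated and 206 to 245 CPM in resting libraries. Its log2 fold change was -0.03 with stimulation and -0.21 with difamilast. Npm1, encoding nucleophosmin, gave -0.03 and -0.35, and Fbl, the ribose methyltransferase fibrillarin, gave 0.23 and -0.33. Nop56, the partner of Nop58, gave 0.28 and 0.12 and was the only gene of the 9 above 0 with difamilast. Other genes in the table share near-identical stretches of at least 400 bases with some members, and reads may be split between them. The counts of such genes were 20.2% of those of Npm1 (4 genes) and 638% of those of Fbl (Tulp4, over 690 bases). They were 15.03% for Eif4a1, 11.9% for Hspd1, 8.07% for Pes1, 8.01% for Eif4e, 0.633% for Eif5a and 0.609% for Nop56, and those for Wdr12, Ddx18 and Odc1 stand beside their values.

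Of the 8 small subunit processome genes, all had a log2 fold change above 0 with stimulation and 2 were called, and with library totals alone 3 of the 8 were above 0. Heatr1, a large scaffold of the early processome that is also needed for ribosomal DNA transcription, held 28.4, 28.6 and 28.9 CPM in difamilast, 28.4, 24.7 and 29.6 CPM in stimulated, and 16.5, 19.0 and 15.2 CPM in resting libraries. The difamilast and stimulated libraries overlapped and both lay above resting. Heatr1 rose 1.62-fold with stimulation (log2 fold change 0.69 ± 0.13, adjusted p = 0.000973), and difamilast against stimulated gave 0.06 ± 0.13 (adjusted p = 0.899). Tsr1, a late maturation factor, held 15.3, 14.3 and 14.7 CPM in difamilast, 20.5, 16.7 and 18.1 CPM in stimulated, and 12.7, 12.4 and 9.63 CPM in resting libraries. The 3 groups did not overlap, with difamilast in the middle. Tsr1 rose 1.57-fold with stimulation (log2 fold change 0.65 ± 0.15, adjusted p = 0.00431), and difamilast gave -0.31 ± 0.15 (adjusted p = 0.342). With library totals alone Heatr1 stood at 0.17 and Tsr1 at 0.13, still positive and not called. Tsr1 shares 1240 exonic bases, 32.3% of its exonic length, with Srr on the opposite strand, and whether counting used strand is not given.

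Wdr75, a processome WD-repeat protein, held 7.97, 9.43 and 11.4 CPM in difamilast, 10.4, 12.7 and 10.9 CPM in stimulated, and 7.69, 7.87 and 9.25 CPM in resting libraries. Its stimulated libraries lay above resting ones and overlapped difamilast ones. Stimulation gave 0.47 ± 0.18 (adjusted p = 0.0583), called without difamilast replicate 3 (0.0423), and difamilast gave -0.25. Rrp12 gave 0.69 ± 0.27 with stimulation (adjusted p = 0.0674), called without resting replicate 1 (0.022), and -0.64 with difamilast. Nop14 gave 0.15 and -0.60, Wdr43 gave 0.14 and -0.45, Rrp9, a protein of the U3 snoRNP, gave 0.12 and -0.29, and Utp20 gave 0.38 and -0.05, in the same order of comparisons. None of these 5 genes was called in either comparison with all libraries. Nop14 was called lower with difamilast without resting replicate 1 (adjusted p = 0.0045).

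Of the 10 large subunit assembly genes, 1 rose with stimulation, and all 10 had a log2 fold change below 0 with difamilast, none called. Ddx21 is an RNA helicase that works both in ribosomal RNA transcription and in its processing. It held 32.3, 34.6 and 34.1 CPM in difamilast, 42.3, 43.9 and 47.5 CPM in stimulated, and 34.0, 28.6 and 32.5 CPM in resting libraries. The stimulated libraries lay above all others, and difamilast and resting libraries overlapped. Ddx21 rose 1.41-fold with stimulation (log2 fold change 0.50 ± 0.12, adjusted p = 0.00411) and stood at -0.03 with library totals alone. Difamilast gave -0.41 ± 0.11 (adjusted p = 0.069), which missed the threshold and passed without resting replicate 1 (0.0119).

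Rrs1, which helps to bring the 5S ribonucleoprotein into the large subunit, held 14.5, 12.2 and 14 CPM in difamilast, 20.8, 17.5 and 20.2 CPM in stimulated, and 15.2, 15.4 and 13.9 CPM in resting libraries. Stimulated libraries were again above all others. Its log2 fold changes of 0.39 ± 0.14 with stimulation (adjusted p = 0.052) and -0.52 ± 0.14 with difamilast (adjusted p = 0.0599) both missed the threshold, the second passing without resting replicate 1 (0.0186). Nop16 held 8.08, 9.06 and 8.39 CPM in difamilast, 11.9, 13.2 and 13.8 CPM in stimulated, and 8.67, 6.33 and 12.8 CPM in resting libraries. Difamilast libraries lay below stimulated ones, and resting replicate 3 lay within the stimulated range. Stimulation gave 0.53 ± 0.21 (adjusted p = 0.0691), called without resting replicate 3 (0.00813), and difamilast gave -0.61 ± 0.20 (adjusted p = 0.14).

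Pes1, Bop1 and Wdr12 form the PeBoW complex of large subunit maturation. Their log2 fold changes with stimulation were -0.14, -0.01 and 0.33, and with difamilast -0.23, -0.03 and -0.34. The nucleolar GTPase gene Gnl3, encoding nucleostemin, gave 0.34 with stimulation and -0.53 ± 0.15 with difamilast (adjusted p = 0.0829), the second called without resting replicate 1 (0.028) or difamilast replicate 3 (0.032). Counts of near-identical genes were 145% of those of Wdr12 (2 genes) and 22.0% of those of Ddx18 (1 gene). The helicase gene Ddx18 gave 0.16 and -0.58, Ppan gave 0.19 and -0.30, and the RNA methyltransferase gene Nop2 gave 0.21 and -0.25. Nop2 was called higher with stimulation without resting replicate 1 (adjusted p = 0.018).

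None of the 6 genes of RNA polymerase I transcription was called higher with stimulation, and 1 was called lower. Log2 fold changes were above 0 in 4 of the 6, with a median of 0.06, as over all tested genes. Ubtf, encoding the factor UBF that marks active ribosomal DNA, held 60.1, 56.8 and 56.6 CPM in difamilast, 63.5, 59.7 and 56.4 CPM in stimulated, and 75.2, 72.0 and 72.7 CPM in resting libraries. Both cytokine groups lay below resting and overlapped each other. Ubtf fell 1.23-fold with stimulation (log2 fold change -0.29 ± 0.10, adjusted p = 0.0352). The call was lost under 8 of the 18 alternatives. Among them were those without stimulated replicate 2 (0.11), stimulated replicate 3 (0.151), difamilast replicate 1 (0.0507) or difamilast replicate 2 (0.0594). Difamilast against stimulated gave -0.05 (adjusted p = 0.888). Polr1b, the gene of the second-largest subunit, held 6.24, 5.52 and 6.73 CPM in difamilast, 6.47, 7.39 and 6.81 CPM in stimulated, and 9.02, 8.04 and 5.32 CPM in resting libraries, and its groups overlapped in both comparisons. Its log2 fold change was -0.13 with stimulation and -0.17 with difamilast. Mybbp1a, a nucleolar regulator, held 29.8, 29.3 and 28.3 CPM in difamilast, 34.7, 34.8 and 33.4 CPM in stimulated, and 38.8, 29.3 and 29.8 CPM in resting libraries. Difamilast libraries lay below stimulated ones without overlap, and the log2 fold change of -0.24 ± 0.13 did not pass (adjusted p = 0.428). Polr1a, the gene of the largest subunit, gave 0.06 and -0.31 for stimulation and difamilast, Polr1c, a subunit shared with RNA polymerase III, gave 0.06 and 0.12, and Rrn3, the initiation factor TIF-IA, gave 0.06 and -0.03. None of these 3 was called.

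Genes for polyamines split with difamilast. Odc1 encodes ornithine decarboxylase, the rate-limiting enzyme of polyamine synthesis, on chromosome 12 from 17544794 to 17551505, plus strand. It held 281, 273 and 204 CPM in difamilast, 148, 137 and 161 CPM in stimulated, and 206, 141 and 170 CPM in resting libraries. All difamilast libraries lay above all stimulated ones, while stimulated and resting libraries overlapped. Odc1 was 1.70-fold higher in difamilast than in stimulated cells (log2 fold change 0.76 ± 0.15, adjusted p = 0.00698). The call was lost without stimulated replicate 1 (0.0508), stimulated replicate 2 (0.0593) or difamilast replicate 2 (0.0533). Stimulation gave -0.21 ± 0.15 (adjusted p = 0.306). The table holds 6 near-identical copies of Odc1, whose counts equal 10.9% of its own.

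Srm encodes spermidine synthase, the next enzyme of the route. It held 13, 15.1 and 13 CPM in difamilast, 21.6, 19.4 and 23.6 CPM in stimulated, and 12.2, 19.2 and 18.2 CPM in resting libraries. All stimulated libraries lay above all others. Srm was 1.57-fold lower in difamilast than in stimulated cells (log2 fold change -0.65 ± 0.17, adjusted p = 0.0481). Its p lies at the threshold, and the call was lost without resting replicate 3 or any single stimulated or difamilast library, with adjusted p from 0.0515 to 0.227. In all it was lost under 10 of the 18 alternatives. Stimulation gave 0.38 ± 0.17 (adjusted p = 0.106). The ratio of Odc1 to Srm per kilobase, chosen after the values were seen, was 13.1, 11 and 9.497 in difamilast, 4.16, 4.28 and 4.13 in stimulated, and 10.2, 4.45 and 5.66 in resting libraries. Its mean was 11.2 ± 1.81 in difamilast and 4.19 ± 0.0780 in stimulated libraries (SD, n = 3 each), without overlap, again p = 0.1 in the exact permutation test. Resting replicate 1, without the drug, lay within the difamilast range at 10.2. The transcript of Srm has 1338 bases and that of Odc1 2208. A ratio within a library does not remove differences between libraries by transcript length, given below, and their part was not tested.

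Cad encodes the enzyme that starts pyrimidine synthesis. It held 6.53, 7.24 and 5.79 CPM in difamilast, 5.90, 5.85 and 7.20 CPM in stimulated, and 12.9, 9.74 and 10.8 CPM in resting libraries. Both cytokine groups lay below resting and overlapped each other. Cad fell 1.75-fold with stimulation (log2 fold change -0.81 ± 0.18, adjusted p = 0.00303), and difamilast against stimulated gave 0.04 (adjusted p = 0.952). Nme1, a nucleoside diphosphate kinase, held 14.7, 16.7 and 25.0 CPM in difamilast, 28.4, 31.5 and 28.7 CPM in stimulated, and 15.1, 27.3 and 23.4 CPM in resting libraries. Its stimulated libraries were highest, and the log2 fold change of -0.66 ± 0.21 with difamilast did not pass (adjusted p = 0.128) except without resting replicate 1 (0.0207) or difamilast replicate 3 (0.0191). Nme1 shares 418 exonic bases, 12.5% of its exonic length, with the coding gene Gm20390 on the same strand, and reads may be split between them. The mitochondrial chaperonin genes Hspd1 and Hspe1, which lie head to head, gave -0.12 and -0.11 with stimulation. With difamilast they gave -0.13 and -0.56, and Hspe1 was called lower without resting replicate 1 (0.036) or difamilast replicate 3 (0.032).

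Of the 3 translation factor genes 2 rose with stimulation. Eif5a encodes eIF5A, an elongation factor whose hypusine residue is made from the polyamine spermidine. It held 503, 496 and 474 CPM in difamilast, 515, 508 and 545 CPM in stimulated, and 224, 289 and 319 CPM in resting libraries. Both cytokine groups lay above resting, and difamilast libraries were just below stimulated ones. Eif5a rose 1.89-fold with stimulation (log2 fold change 0.92 ± 0.12, adjusted p = 2.71e-05) and difamilast gave -0.09 (adjusted p = 0.801). Eif4a1, the RNA helicase of the cap-binding complex, held 379, 360 and 334 CPM in difamilast, 399, 388 and 414 CPM in stimulated, and 314, 316 and 342 CPM in resting libraries. The stimulated libraries lay above both other groups. Eif4a1 rose 1.24-fold with stimulation (log2 fold change 0.31 ± 0.09, adjusted p = 0.0214) and stood at -0.22 with library totals alone. That call was lost, with its sign kept, under 6 of the 18 alternatives. Among them were those without resting replicate 2 (0.098), stimulated replicate 1 (0.106), stimulated replicate 2 (0.0503) or stimulated replicate 3 (0.083). Eif4e, the cap-binding protein gene, held 43.7, 40.4 and 34.0 CPM in difamilast, 32.1, 40.8 and 41.4 CPM in stimulated, and 29.4, 33.0 and 31.8 CPM in resting libraries, and its stimulated group overlapped both others. Its log2 fold changes of 0.29 with stimulation and 0.04 with difamilast were not called.

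**Figure D3:**
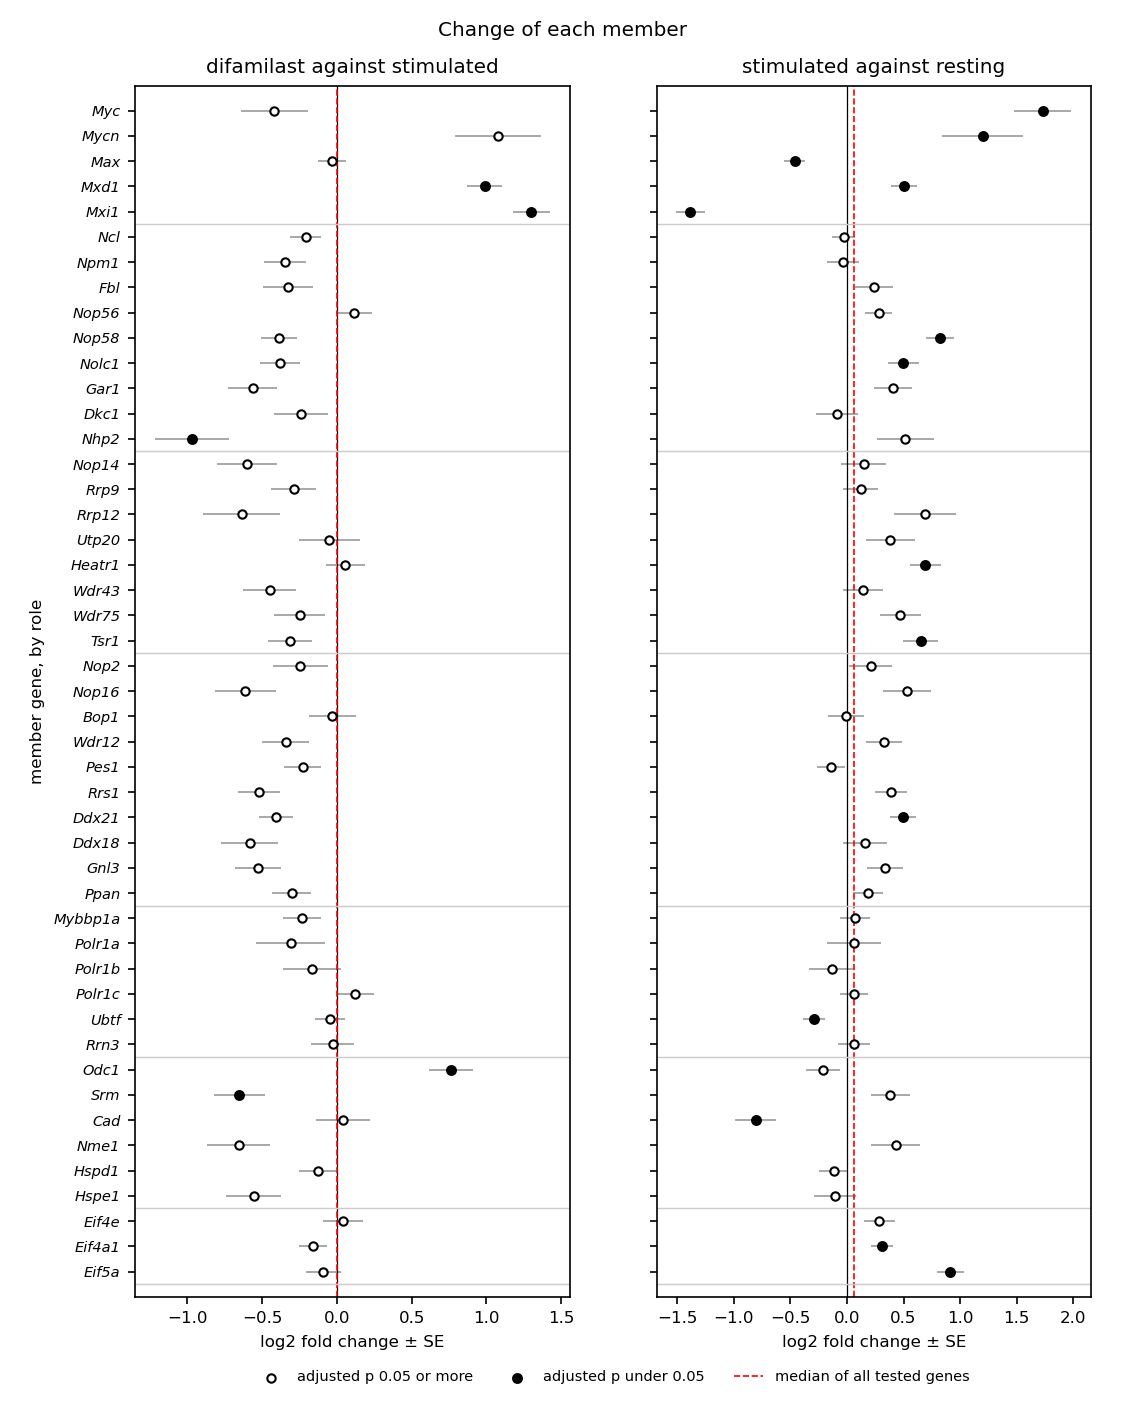
Log2 fold change ± SE of each member, by role, for difamilast against stimulated (left) and stimulated against resting (right). Filled points passed an adjusted p of 0.05, and the dashed line is the median of all tested genes. On the left, 38 of 47 points lie below 0 and the filled points above 0 are Mxd1, Mxi1 and Odc1. On the right, 10 filled points lie above 0 and 4 below, with TMM scaling.

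Across the set, log2 fold changes with difamilast were mostly small and below 0. The median over the 47 members was -0.25, against -0.003 over all tested genes and -0.01 over the 12364 tested genes in the members' range of levels. By role the median was 0.99 for the MYC and MAX network, -0.35 for snoRNP and nucleolar core, -0.30 for the small subunit, -0.38 for the large subunit and -0.11 for RNA polymerase I genes. It was -0.34 for polyamine, nucleotide and chaperone genes and -0.09 for translation factors. In 26 members all difamilast libraries lay below all stimulated ones, 55.3% of the set, where 12.6% of all tested genes and 16.5% of those in the same range of levels did. In 4 members, Mycn, Mxd1, Mxi1 and Odc1, all difamilast libraries lay above all stimulated ones, 8.51% against 12.2% of all genes. The count of 26 stood at 23 with library totals alone, 48.9% against 12.2% of all tested genes. With a transcript length trend removed it stood at 25, 53.2% against 12.7%.

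The number of members called lower with difamilast depended on single libraries. It was 2 with all libraries, 11 without resting replicate 1, 4 without difamilast replicate 3, and 0 without resting replicate 3, any stimulated replicate, or difamilast replicate 1 or 2. Calls over all tested genes moved too, from 264 lower with all libraries to between 89 and 823 with single libraries left out. Without resting replicate 1 the members' median log2 fold change in that comparison stayed at -0.25. Short transcripts, 812 tested genes under 1000 bases with a mean of at least 10 CPM, differed in level between these libraries. Their median deviation from the mean of all libraries, in log2 units, was -0.38, -0.31 and 0.22 in difamilast, 0.16, 0.31 and 0.15 in stimulated, and -0.39, 0.24 and -0.05 in resting replicates 1 to 3. Members under 1500 bases had a median log2 fold change of -0.56 with difamilast (7 members), those from 1500 to under 3000 bases -0.25 (20 members) and those of 3000 bases or more -0.22 (20 members). With the length trend removed, 5 members were called lower and 4 higher.

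**Figure D4:**
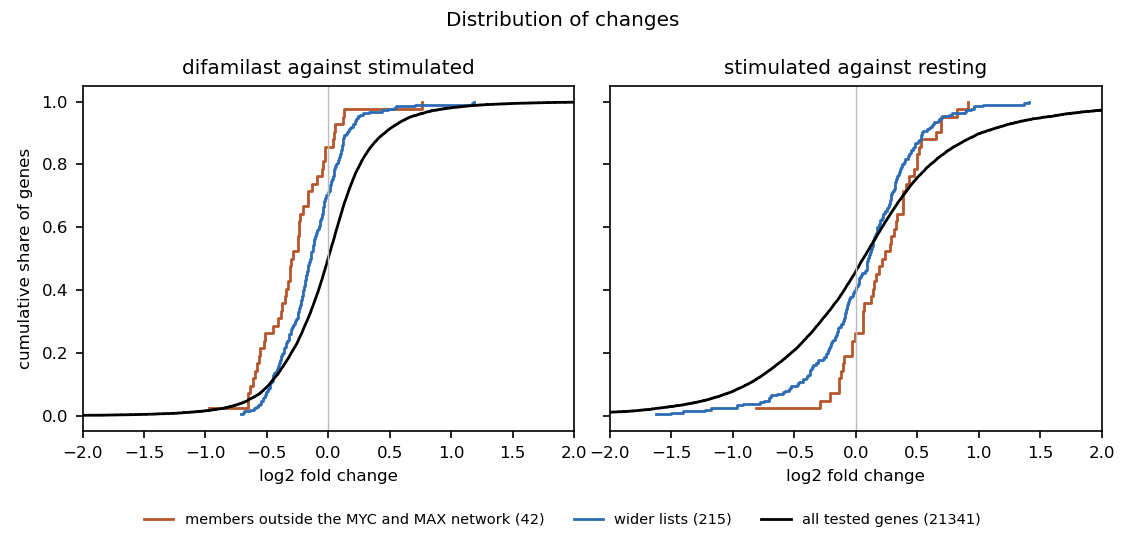
Cumulative share of genes (vertical axis) at or below each log2 fold change (horizontal axis) for difamilast against stimulated (left) and stimulated against resting (right), with lines for the 42 members outside the MYC and MAX network, 215 genes of the wider lists and 21341 tested genes. On the left the members' line runs to the left of the line of all genes over most of its range, and the wider lists lie between. On the right, with TMM scaling, fewer members than genes overall lie below 0.

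Set against resting cells, 8 members were higher in difamilast cells and 6 were lower, edgeR with Benjamini-Hochberg adjustment. The resting libraries are also those of the stimulation comparison. These were 17.0% and 12.8% of the set, where 16.4% of all tested genes were called in each direction. The split was 4 higher, Myc, Mycn, Mxd1 and Eif5a, and 33 lower with library totals alone. Over all 21341 tested genes, 1507 were then called higher and 9472 lower. In 10 members all difamilast libraries lay above all resting ones, 21.3% where 23.0% of all tested genes did, and in 6 they lay below, 12.8% where 19.8% did. With library totals alone these counts were 4 and 29, or 8.51% and 61.7%, against 9.17% and 45% of all tested genes. Among genes in the members' range of levels the shares were then 9.29% and 61.1%. Myc was 2.48-fold higher (log2 fold change 1.31 ± 0.26, adjusted p = 0.00107), Mxd1 2.82-fold, Heatr1 1.68-fold and Eif5a 1.77-fold higher. Mycn, given above, Odc1, Nop58 and Nop56 were also called higher, and Nop58 and Nop56 stood at -0.07 and -0.11 with library totals alone. Max, Cad, Ubtf, Npm1, Pes1 and Hspe1 were called lower, by 1.41-fold, 1.70-fold, 1.27-fold, 1.30-fold, 1.29-fold and 1.59-fold. Of these, Myc, Mycn, Mxd1, Max, Heatr1, Eif5a and Cad kept their calls with each library left out in turn. Odc1 was lost without resting replicate 2 (adjusted p = 0.0658), and Ubtf without difamilast replicate 2 (0.0651). Nop58 was lost without resting replicate 3 (0.0748) or difamilast replicate 1 (0.0585), and Nop56 without resting replicate 3 (0.0787), stimulated replicate 1 (0.0515), difamilast replicate 1 (0.101) or difamilast replicate 2 (0.0634). Hspe1 was lost without resting replicate 2 (0.0586), difamilast replicate 1 (0.0604) or difamilast replicate 2 (0.0587). Pes1 was lost without stimulated replicate 2 or 3 or any difamilast replicate (0.0555 to 0.0971), and Npm1 without any library but resting replicate 1 and difamilast replicate 3 (0.0522 to 0.184).

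Summed over the set, members took 3646, 3530 and 3314 CPM in difamilast, 3029, 3029 and 3164 CPM in stimulated, and 2580, 2590 and 2591 CPM in resting libraries. As a share of raw counts the order differed, at 0.334%, 0.321% and 0.282% in difamilast, 0.270%, 0.268% and 0.275% in stimulated, and 0.340%, 0.318% and 0.327% in resting libraries. Mxd1 alone held 1009 to 1188 CPM of the sum in difamilast and 543 to 590 CPM in stimulated libraries.

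Lists of 216 further genes of the same processes, of which 215 were tested, give the surroundings of the members. With stimulation 33 of them rose and 23 fell, or 15.3% and 10.7%, where 15.3% and 16.4% of all tested genes did. Their median log2 fold change was 0.10, against 0.06 over all genes, and with library totals alone 5 were called higher and 116 lower. Over all 21341 tested genes that scaling gave 1326 higher and 8749 lower. Of 39 further small subunit genes 7 rose and none fell, led by Rcl1 (log2 fold change 1.41, adjusted p = 7.16e-07), Pno1 (0.64) and Imp4 (0.40). Of 38 further large subunit genes 5 rose and none fell, among them Gtpbp4 (0.76), Nip7 (0.62) and Brix1 (0.63). Of 10 further RNA polymerase I genes 2 rose, Ttf1 (0.59) and Znrd1 (0.68), and of 12 further snoRNP genes none was called, the nearest being Snu13 (0.35, adjusted p = 0.0856). Of 21 RNA polymerase III genes 2 rose, Bdp1 (0.55) and Polr3d (0.90), and 2 fell, including Polr3g (-1.22). Of 34 translation initiation genes 9 rose and 7 fell, the leading falls being Pdcd4 (-0.97), an inhibitor of eIF4A, Eif4b (-0.91) and Eif4ebp2 (-0.78), which encodes a repressor of eIF4E. Of 15 chaperone genes 3 rose and 2 fell, led by Hsp90aa1 (1.03), Trap1 (-0.55) and Grpel1 (0.53). Of 19 nucleotide synthesis genes 1 rose and 4 fell, led by Adssl1 (-1.41), Paics (-0.69) and Ctps2 (-0.75).

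Some other partners of MAX fell with stimulation too. Of 8 tested genes of the wider MYC, MAX and MLX network 4 were called lower and none higher. Of all tested genes 16.4% were called lower and 15.3% higher. Log2 fold changes were above 0 in 4 of the 8 and below 0 in 4, with a median of -0.16. Mnt, a further repressing partner, held 15.1, 14.3 and 13.5 CPM in difamilast, 11.6, 14.8 and 15.4 CPM in stimulated, and 47.3, 38.4 and 44.6 CPM in resting libraries. Both cytokine groups lay far below resting and overlapped each other. Mnt fell 3.08-fold with stimulation (log2 fold change -1.62 ± 0.14, adjusted p = 4.87e-07), and difamilast against stimulated gave 0.02. Mxd3 fell 2.84-fold and Mxd4 1.62-fold with stimulation. Among regulators of MYC turnover, Fbxw7, a ubiquitin ligase subunit that targets MYC for degradation, rose 2.58-fold with stimulation, Usp28, a deubiquitinase that opposes it, fell by 1.17 on the log2 scale and Cip2a fell by 0.64.

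Around Odc1, 3 further polyamine and hypusine genes of 12 rose and 2 fell with stimulation. Smox encodes spermine oxidase, which turns spermine back to spermidine. It held 325, 324 and 247 CPM in difamilast, 125, 132 and 137 CPM in stimulated, and 72.3, 58.8 and 71.7 CPM in resting libraries. The 3 groups did not overlap, with difamilast highest. Smox was 2.27-fold higher in difamilast than in stimulated cells (log2 fold change 1.19 ± 0.12, adjusted p = 3.47e-05) and rose 1.95-fold with stimulation. Azin1, which shields ornithine decarboxylase from degradation, rose 1.95-fold with stimulation, and difamilast against stimulated gave a log2 fold change of 0.05. Eif5a2, the paralog of Eif5a, fell 1.96-fold with stimulation.

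**Figure D5:**
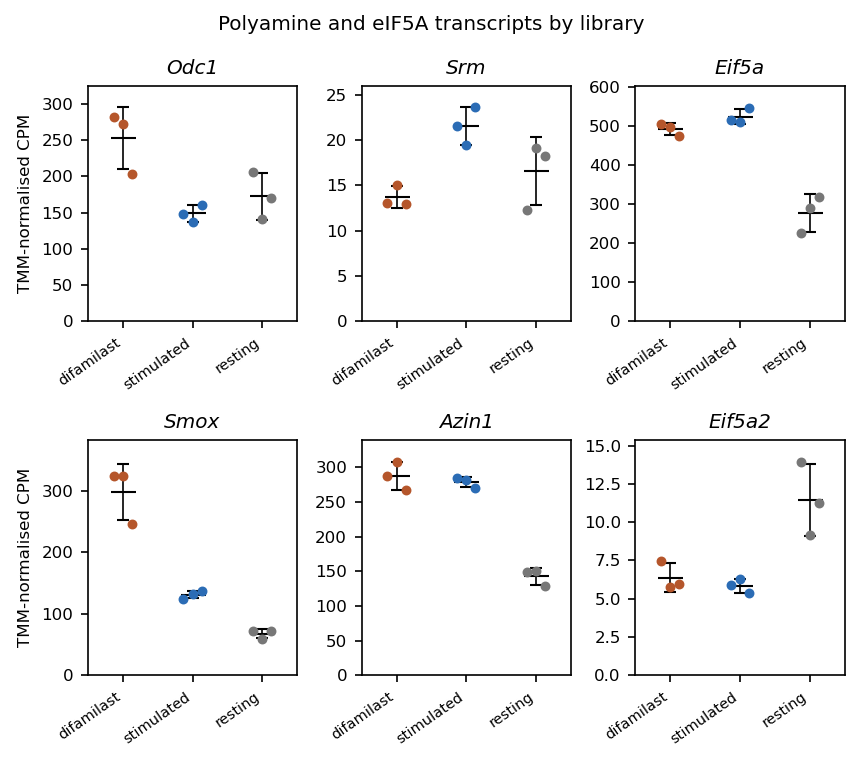
TMM-normalised CPM of the members Odc1, Srm and Eif5a and of the neighbouring genes Smox, Azin1 and Eif5a2 in 3 libraries of each group (points), with the mean and SD (bars). Odc1 lies at 204 to 281 CPM and Smox at 247 to 325 CPM in difamilast libraries, above the stimulated libraries at 137 to 161 CPM and 125 to 137 CPM. Srm lies at 13 to 15.1 CPM in difamilast and 19.4 to 23.6 CPM in stimulated libraries.

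With difamilast, 4 of the 215 genes of the wider lists rose against stimulated cells and 2 fell, or 1.86% and 0.93%, where 2.21% and 1.24% of all tested genes did. A log2 fold change below 0 was found in 153 of 215, or 71.2%, against 50.4% of all genes, with a median of -0.14. Adssl1, which makes adenylosuccinate on the way to AMP, held 55.8, 51.2 and 40.7 CPM in difamilast, 19.6, 22.1 and 23.6 CPM in stimulated, and 58.7, 55.6 and 59.8 CPM in resting libraries. Its stimulated libraries were lowest, as those of Mxi1 were. Adssl1 was 2.25-fold higher in difamilast than in stimulated cells (log2 fold change 1.17 ± 0.13, adjusted p = 7.21e-05). Smox, Nop53 (0.53 ± 0.12, adjusted p = 0.0231) and Riok1 (0.48 ± 0.11, adjusted p = 0.0182), the last a kinase of late small subunit maturation, were the others called higher. Brix1 (-0.55 ± 0.14, adjusted p = 0.0452) and Wdr74 (-0.57 ± 0.15, adjusted p = 0.0476), both of large subunit assembly, fell. Of 38 further large subunit genes 32 were below 0 with a median of -0.30, of 39 further small subunit genes 33 with a median of -0.17, and of 10 further RNA polymerase I genes 9 with a median of -0.33. Among the 34 translation initiation genes 21 were below 0, with a median of -0.10.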

How the data were processed

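Gene expression was measured by bulk RNA-seq in 9 libraries. The authors deposited a single table of raw counts per gene symbol, whole numbers whose totals ran from 6261446 to 38098584. Per the labels' protocols, RNA was captured through its poly(A) tail, the whole transcriptome was amplified and then fragmented, and no molecular identifiers are mentioned, so counts may include amplification copies and may depend on transcript length. Tools named in the submitters' processing notes are Bowtie2 2.4.5 and cutadapt 4.1, with the build GRCm38. What counted the reads, on which annotation, and whether strand was used is not given in the sources used here.

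Groups came from the sample titles. Counts were tested with edgeR 4.0.16 in R 4.3.3 (TMM scaling, filterByExpr with a minimum count of 10 and a minimum total of 15, quasi-likelihood test with robust dispersion) in a single fit of 9 libraries with 6 residual degrees of freedom, with Benjamini-Hochberg adjustment over 21341 genes and calls at 0.05. Standard errors were derived from the test statistic. The steps were tested on simulated data. Each pair of replicates differed beyond sampling noise (chi-square per degree of freedom 4.55 to 49.3), a test that covers counting error only. The members, the wider lists, the markers and the alternatives were chosen with earlier results of these data known. Values in every library are given for up to 3 members of each role with the smallest p for stimulation, for every member called with difamilast, and for the MYC and MAX network. Of each wider list, up to 3 called genes with the smallest p for stimulation are named, or the gene with the smallest p where none was called, and every gene called with difamilast.

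Gene positions and lengths (longest coding transcript) came from GENCODE vM21 (GRCm38), matched by symbol for all 47 members, and promoter windows from RefSeq (GRCm38.p6). Genes aligned to a member over at least 400 bases at 95% identity or more were listed as near-identical. Those whose exons overlap the member's were left out. Alternatives were RLE scaling, DESeq2 1.42.0, limma-voom 3.58.1, a fit restricted to the groups compared, no filter on low counts, a replicate block, transcript length correction (lowess of log2 CPM with prior count 2, span 0.3), thinning to 6261446 counts, and each library left out in turn. Scaling by library totals alone was added after the data were seen.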

Additional observations from a re-analysis of the deposited data

How the results depend on the processing

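Scaling decided the stimulation comparison's balance of signs. With library totals alone, 2 members were called higher and 16 lower in stimulated against resting, and 4 higher and 33 lower in difamilast against resting, while over all genes the calls were 1326 higher and 8749 lower, and 1507 higher and 9472 lower, against 3273 and 3497, and 3501 and 3500, with TMM. The members' median for stimulation was then -0.29. Under that scaling 27 members changed sign in stimulated against resting and 12 in difamilast against resting. No member did so in difamilast against stimulated. Of those that did, 20 and 6 were called under neither scaling, and the rest were Mxd1 -0.0259, Nolc1 -0.0258, Ddx21 -0.0336, Mybbp1a -0.46, Polr1c -0.46, Rrn3 -0.47 and Eif4a1 -0.22 in stimulated against resting, and Nop56 -0.11, Nop58 -0.0718, Nolc1 -0.39, Ddx21 -0.42, Rrn3 -0.48 and Eif4a1 -0.36 in difamilast against resting. Measured from the median of all genes, the members' median kept its sign in each of the 18 alternatives run, at 0.15 to 0.23 for stimulation, -0.28 to -0.23 for difamilast against stimulated and -0.17 to -0.06 for difamilast against resting. Myc, Max, Mxi1, Cad and Eif5a with stimulation, and Mxd1 and Mxi1 with difamilast against stimulated, were called under each of the 18 alternatives.

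The count of 2 members called lower in difamilast against stimulated was 1 with RLE scaling, 7 with DESeq2, 6 with limma-voom, 5 without the filter, 14 in a fit of the groups compared, 5 with the length trend removed, 1 after thinning, and 0 to 11 with single libraries left out. The cause was not tested. Over all genes, calls lower in that comparison were 446 with DESeq2, 400 with limma-voom, 662 without the filter, 842 in the fit of the groups compared (831 higher) and 407 with the length trend removed, against 264, and 89 to 823 with single libraries left out (258 to 870 higher, against 471). In the wider lists, calls lower there, against 2, were 0 with RLE scaling or after thinning, 11 with DESeq2, 7 with limma-voom, 13 without the filter, 25 in the fit of the groups compared, 8 with the length trend removed, and 0 to 26 with single libraries left out. Members called lower in difamilast against resting, against 6, were 2 after thinning and 2 to 10 with single libraries left out. Depth limits Mycn and Myc most, at 7 and 18 reads in resting replicate 3.

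With the replicate number as a block, 10 members were called higher and 3 lower in stimulated against resting, 3 higher and 1 lower in difamilast against stimulated, and 8 higher and 5 lower in difamilast against resting. Deviations of same-numbered libraries from their group means correlated at -0.0778 to 0.108. That range does not settle whether same-numbered libraries share a culture or animal, which the labels do not state.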
